A study of Mus musculus with 160 samples.

Results

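The clustered protocadherins are cell-surface adhesion genes that lie side by side in 3 clusters, alpha, beta and gamma, on mouse chromosome 18. Genes were taken by symbol, as every gene of the count table whose name begins with Pcdha, Pcdhb, Pcdhga, Pcdhgb or Pcdhgc and goes on with its number (or, for alpha, a C-type name). The rule found 24 of the 39179 genes in the table, 22 of them the beta genes Pcdhb1 to Pcdhb22. The others were 1 alpha record, named Pcdha11, and 1 gamma record, named Pcdhgc4. GENCODE M21 (GRCm38) names 58 such genes, 14 alpha, 22 beta and 22 gamma, and the remaining 34 identifiers were not analysed here. In that annotation the 24 members lie on the plus strand of chromosome 18, from position 37005203 at the start of the alpha record to position 37841873 at the end of the gamma record.

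Clustered protocadherins are known as surface labels of neurons. Each neuron expresses its own small choice of isoforms, which bind the same isoforms on a facing membrane, and this recognition serves dendrite self-avoidance, axon tiling and synapse formation. In the alpha and gamma clusters a variable exon, with a promoter of its own, is spliced to constant exons shared by the whole cluster, whereas each beta gene stands alone and has no constant exons. Most of these promoters are chosen by DNA methylation, CTCF and cohesin, which bring distant enhancers to them, and the C-type genes at the end of the alpha and gamma clusters are used more broadly.

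RNA of 3 brain regions, the striatum, the cortex and the cerebellum, each from the left hemisphere, was sequenced in 120 libraries. The mice were R6/2 animals, which carry the transgene Tg(HDexon1)62Gpb on a C57BL/6J background, and wild-type (WT) animals of the same background. R6/2 mice are used as a model of Huntington's disease, since the transgene encodes the first exon of human huntingtin carrying a long CAG repeat and is driven by the human promoter. All mice were 12 weeks old and had received by mouth, 6 h before the tissue was taken, either vehicle (cyclodextrin in citrate buffer) or 10 mg/kg of CHDI-00340246, an inhibitor of kynurenine 3-monooxygenase. In each region the 2 genotypes and 2 treatments gave 4 groups, 12 in all, with 10 libraries apiece, 5 from females and 5 from males.

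Sequencing depth lay between 28471097 and 46301273 estimated counts per library. The region labels were matched by defining markers: the striatal receptor gene Adora2a stood at 70.6 to 397 CPM (TMM-scaled counts relative to library size) in the striatum, the cortical neuron factor gene Neurod6 at 56.6 to 104.4 CPM in the cortex and the granule cell receptor gene Gabra6 at 698 to 982 CPM in the cerebellum, each above all libraries of the other regions. The labels give each library a specimen number, with a separate run of 40 numbers for each region. The place of a library within its run was computed and is called its specimen position. Libraries of different regions with the same specimen position deviated together. Mean correlations over 40 pairs were 0.519 for striatum and cortex, 0.446 for striatum and cerebellum and 0.463 for cortex and cerebellum. The 3 regions may therefore come from the same mice and are not treated as independent repeats. In each region the library with the lowest mean correlation with its group was taken, without a cut-off, and is called the library that stood apart. It was a WT female given CHDI-00340246 in the striatum (replicate 1), a WT vehicle female in the cortex (replicate 3) and a WT male given CHDI-00340246 in the cerebellum (replicate 5). These correlations were 0.980, 0.985 and 0.970, against medians over libraries of 0.987, 0.989 and 0.988, the gap being smallest in the cortex. Named calls and counts of rising beta genes per region that change without these 3 libraries are given with both values.

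Which transcripts the alpha and gamma records count was not settled by the files. Their mean counts were 5267 and 20665 per brain library, against 5.77 to 681 for the beta genes. In the annotation, 2860 of the 5359 exonic bases of Pcdha11 and 2119 of the 5596 of Pcdhgc4 lie in exons shared with other genes of their cluster. The gene length implied by the ratio of the 2 deposited tables was the same in all 12 groups, to 1 base, for 21 of the 22 beta genes, the exception being the scarce Pcdhb1. For the alpha record it moved between groups, for example from 5119 bases in WT to 5073 bases in R6/2 vehicle striatum. The 2 records are therefore described as the alpha record and the gamma record, and a change in either cannot be assigned to a single isoform. Pcdhb21 and Pcdhb22 overlap on the same strand by 455 exonic bases, and reads that match several beta genes could be divided between them, as 7 of the 22 beta genes had at least 80% whole-number counts and Pcdhb12 had none.

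Per length, the gamma record was the highest of the members in WT vehicle libraries and the beta genes were low. Its FPKM (fragments scaled to gene length and library size) averaged 127.5 ± 5.96 in the striatum, 111.2 ± 7.01 in the cortex and 138.5 ± 8.14 in the cerebellum (mean ± SD, n = 10). The alpha record stood at 19.3 ± 1.54, 34.8 ± 2.12 and 31.2 ± 0.893 FPKM in the same order, and the 22 beta genes together at 40.2 ± 4.34, 36.1 ± 2.32 and 46.9 ± 2.49 FPKM. The alpha record was thus lower in the striatum than in both other regions.

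Among the beta genes, Pcdhb17 and Pcdhb20 led in all 3 regions, with 5.37 ± 0.485 and 4.84 ± 0.531 FPKM in the striatum, 4.84 ± 0.415 and 3.82 ± 0.287 in the cortex, and 5.33 ± 0.495 and 4.54 ± 0.405 in the cerebellum. Pcdhb9 followed at 3.49 ± 0.405, 3.65 ± 0.565 and 4.20 ± 0.403 FPKM. At the other end stood Pcdhb1, the beta gene nearest the alpha cluster, at 0.145 ± 0.0806, 0.0295 ± 0.0235 and 0.0292 ± 0.0160 FPKM. Most neighbours in the order of levels did not differ beyond their spread: of 21 neighbouring steps, only 7, 6 and 7 were larger than the larger SD of the 2 genes in the striatum, cortex and cerebellum.

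**Figure D1:**
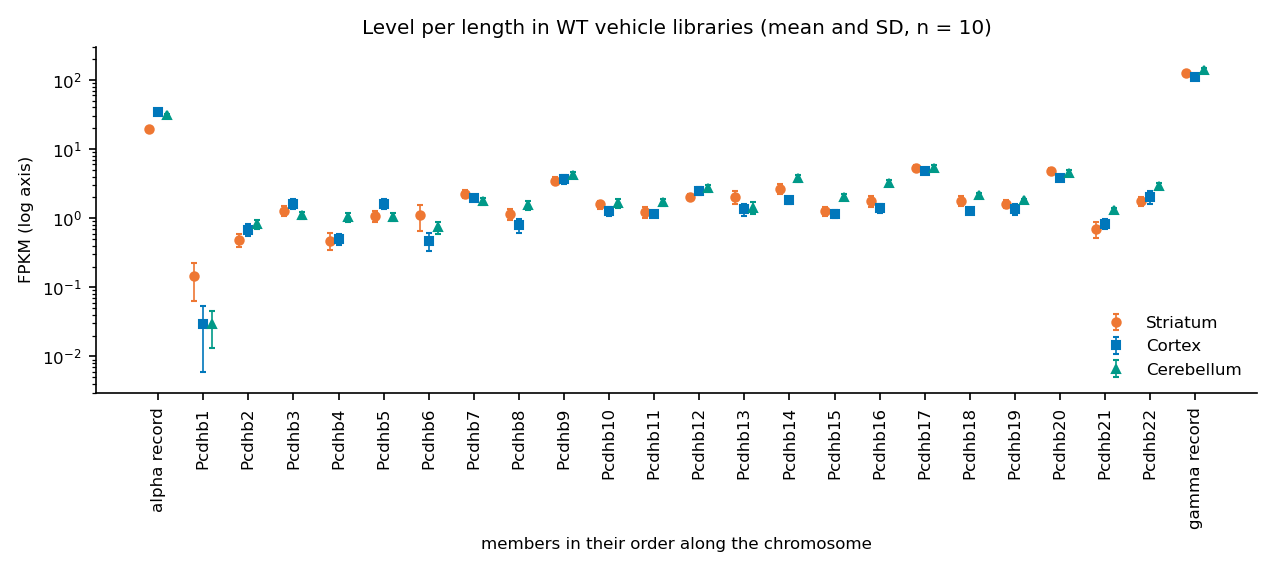
Level per length (FPKM, log axis) of the 24 members in the WT vehicle libraries of each region, as mean and SD over 10 libraries, with members in chromosomal order. The gamma record lies highest at 127.5 FPKM in the striatum, the alpha record next, and the beta genes spread from Pcdhb1 at the bottom to Pcdhb17.

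Between regions of WT vehicle mice, beta genes differed in both directions. Pcdhb1 passed the filter on low counts through the striatum and is left out of the counts that follow. Striatum over cortex, 13 of the 23 other members were higher (all genes 34.1%) and 5 lower (all genes 29.9%). Cerebellum over cortex, 14 were higher (39.1%) and 4 lower (37.5%), and cerebellum over striatum, 11 were higher (39.3%) and 7 lower (39.6%). The median log2 difference of the 21 beta genes was 0.23, 0.34 and 0.12 in these comparisons, against 0.04, 0.02 and -0.02 over the 18581 genes tested. These tests take libraries of different regions as separate samples. With Pcdhb1 the counts were 14 higher and 5 lower, 14 and 4, and 11 and 8, and with the specimen position as a block as well they were 15 and 5, 15 and 4, and 12 and 8. Scaling the libraries by their totals in place of TMM moved the share of higher calls among all genes called from 53.3 to 41.6% for striatum over cortex and from 49.8 to 60% for cerebellum over striatum.

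Pcdhb6 had the largest striatal excess over the cortex among the members above 0.5 CPM. Its lowest, median and highest levels were 1.75, 2.66 and 5.19 CPM in the WT vehicle striatum, 0.649, 1.152 and 1.77 CPM in the cortex and 1.38, 1.72 and 2.47 CPM in the cerebellum. The striatal and cortical ranges overlapped at their edges, and the log2 difference was 1.27 ± 0.16 (SE; adjusted p = 1.37e-11). Next in the striatum over the cortex came Pcdhb13, Pcdhb14 and Pcdhb8, at log2 differences of 0.70 ± 0.11, 0.65 ± 0.07 and 0.63 ± 0.11. Of the decreases, Pcdhb5 was lower by a log2 difference of -0.50 ± 0.10, Pcdhb2 by -0.38 ± 0.14 and Pcdhb3 by -0.24 ± 0.09. The call on Pcdhb3 was lost without replicate 3 (adjusted p = 0.177), without replicate 4 (adjusted p = 0.0653) and without the 3 libraries that stood apart (adjusted p = 0.0796), and that on Pcdhb2 without replicate 2 (adjusted p = 0.0542) or replicate 5 (adjusted p = 0.119).

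In the cerebellum Pcdhb16 stood at 14.8, 16.7 and 20.3 CPM, against 5.86, 7.59 and 9.90 CPM in the cortex and 7.47, 10.7 and 12.4 CPM in the striatum. All 10 cerebellar libraries lay above all 10 of either other region, with a log2 difference of 1.13 ± 0.09 over the cortex (adjusted p = 4.31e-22) and 0.71 ± 0.09 over the striatum (adjusted p = 2.71e-12). Pcdhb4 was higher by log2 differences of 0.98 ± 0.13 and 0.96 ± 0.14 against the cortex and the striatum. Pcdhb14 and Pcdhb8 exceeded the cortex by 0.97 ± 0.07 and 0.91 ± 0.11, and Pcdhb21 and Pcdhb22 exceeded the striatum by 0.73 ± 0.10 and 0.57 ± 0.08 on the log2 scale. Cerebellar levels were lower than cortical ones for Pcdhb5 (-0.72 ± 0.10), Pcdhb3 (-0.64 ± 0.09) and Pcdhb7 (-0.23 ± 0.07), and lower than striatal ones for Pcdhb13 (-0.69 ± 0.11), Pcdhb6 (-0.68 ± 0.16), Pcdhb7 (-0.52 ± 0.07) and Pcdhb3 (-0.40 ± 0.09). The call on Pcdhb7 against the cortex was lost on the 3 FPKM settings (adjusted p = 0.0621 to 0.122), and that on Pcdhb3 against the striatum on log2(FPKM + 1), where the difference was -0.12 (adjusted p = 0.0757, and 0.109 with no filter).

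The alpha record was lowest in the striatum. It stood at 96.3, 110.5 and 120.9 CPM in WT vehicle striatum, 162, 192 and 201 CPM in the cortex and 152.1, 157.3 and 166 CPM in the cerebellum, and the striatal libraries all lay below those of the other regions. The log2 difference was -0.78 ± 0.04 for striatum over cortex (adjusted p = 1.33e-32) and -0.26 ± 0.04 for cerebellum over cortex (adjusted p = 4.66e-08). The gamma record went the other way, by 0.28 ± 0.03 and 0.24 ± 0.03 in the same 2 comparisons. The lowest, median and highest levels of Pcdhb1 were 0.0925, 0.337 and 0.820 CPM in the 10 WT vehicle libraries of the striatum. In the cortex it had 28 counts over the 10 WT vehicle libraries and 24 in the cerebellum.

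In R6/2 mice given vehicle, most beta genes were higher than in WT in every region, while the alpha record rose in the striatum alone and the gamma record rose in none. Of the beta genes tested, 16 of 22 rose in the striatum (all genes rising 29.7%), 17 of 21 in the cortex (28.1%) and 18 of 21 in the cerebellum (26.3%), and none of the beta genes fell in these 3 edgeR fits (all genes falling 26.5, 26.9 and 26%). The median log2 change of the beta genes was 0.42, 0.39 and 0.35, against 0.02, 0.01 and 0.01 over all genes tested. All 24 members passed the filter on low counts in the striatum and 23 in the cortex and the cerebellum, where Pcdhb1 was too scarce. At an unadjusted p under 0.05, 1 beta gene was lower in the striatum and 0 in the other regions, and DESeq2 called 15, 17 and 17 beta genes higher and 0 lower. Without the libraries that stood apart, 17, 17 and 19 beta genes rose and 0 fell in edgeR.

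**Figure D2:**
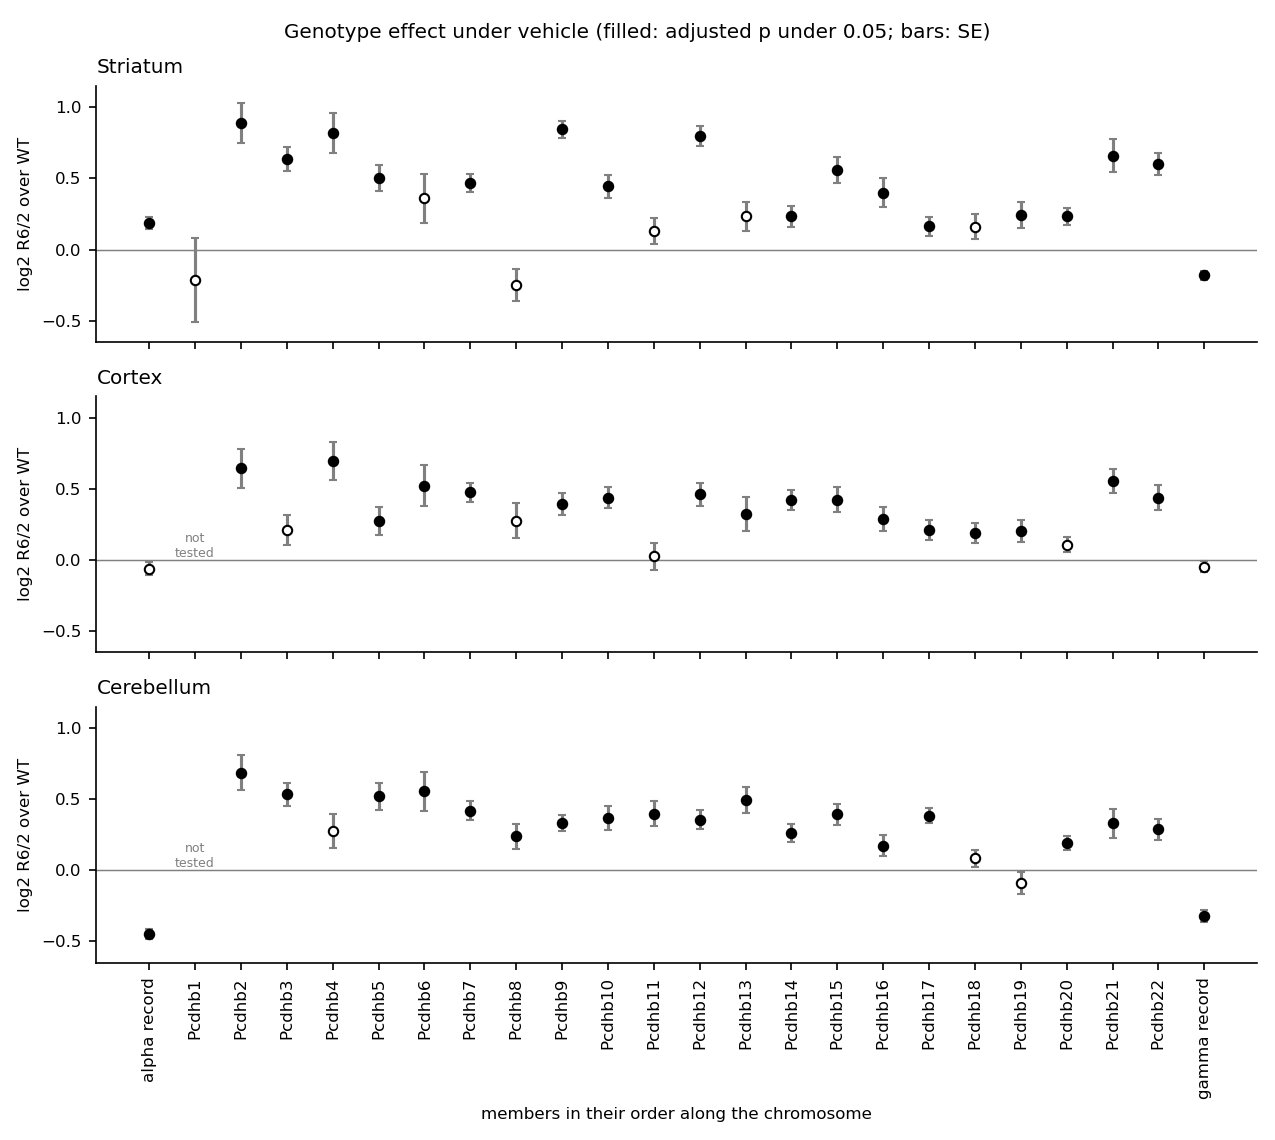
Log2 difference of R6/2 over WT under vehicle for each member in chromosomal order, with its SE, from the edgeR fit of 40 libraries per region. Filled points passed at an adjusted p under 0.05: the beta genes lie mostly above 0 in all 3 regions, and in the cerebellum the alpha and gamma records lie below it.

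Summed over the 22 beta genes, the level ran over 122.9, 153.6 and 176 CPM (lowest, median and highest library) in WT vehicle striatum and 179, 199.6 and 242 CPM in R6/2 vehicle striatum. In the cortex the values were 113.3, 134.5 and 143.7 CPM in WT and 147.1, 162 and 184 CPM in R6/2. In the cerebellum they were 162, 175 and 195 CPM in WT and 192, 218 and 235 CPM in R6/2. The groups did not overlap in the striatum and the cortex and overlapped at the edge in the cerebellum.

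**Figure D3:**
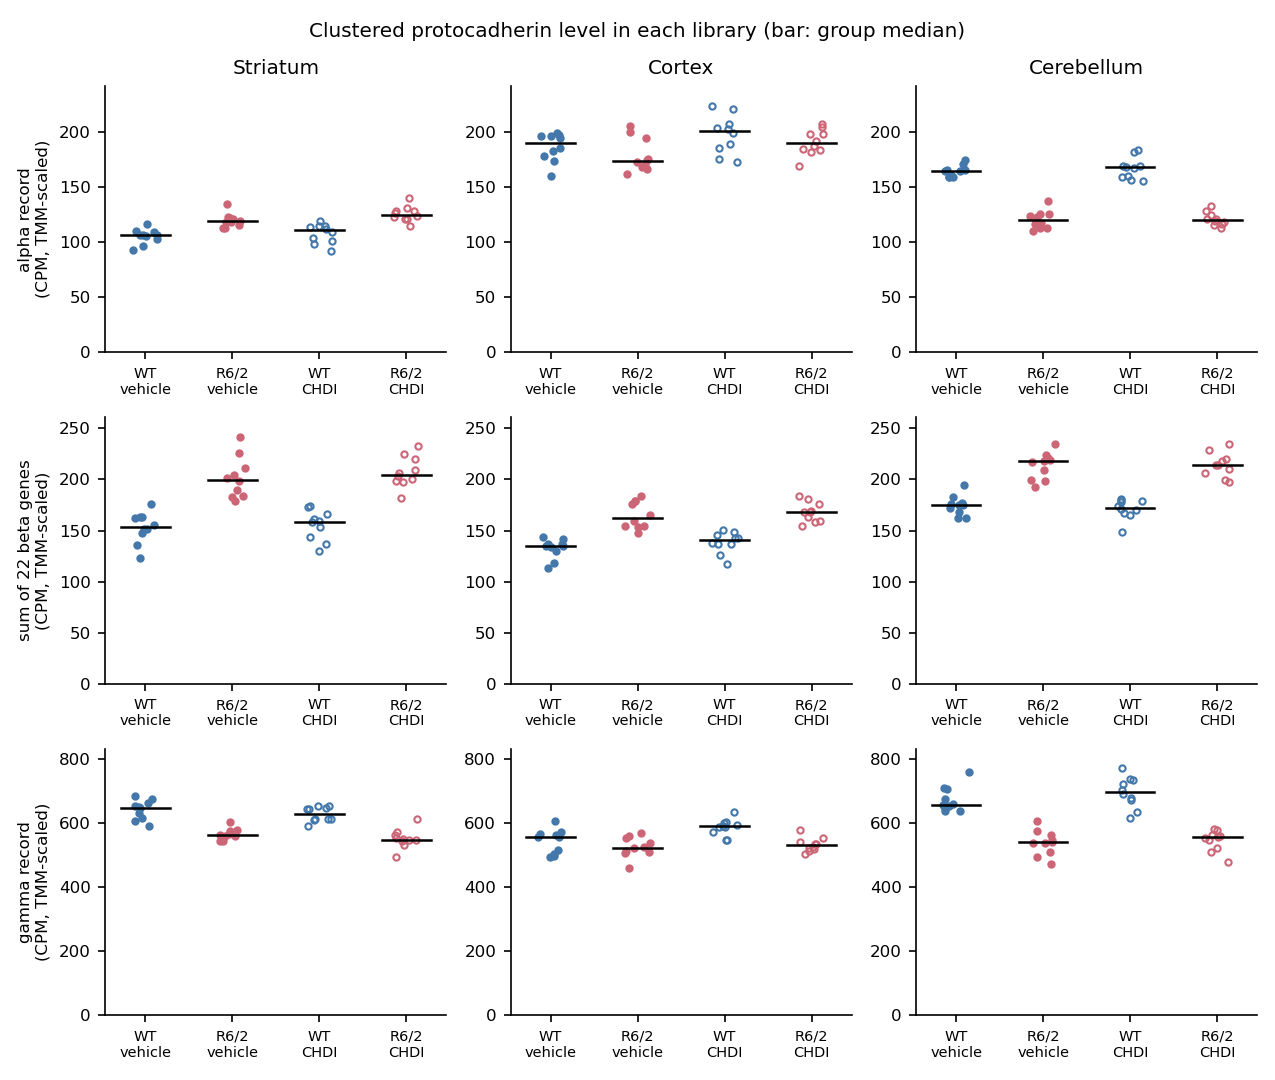
Level of the alpha record, of the 22 beta genes together and of the gamma record in each of the 120 brain libraries (TMM-scaled CPM; filled points vehicle, open points CHDI-00340246; bars, group medians). The beta sum is higher in R6/2 in every region, with a median of 199.6 against 153.6 CPM in the vehicle striatum, and the median of the alpha record is higher in R6/2 in the striatum and lower in the cerebellum.

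The striatum held the largest rises. Pcdhb2 stood at 0.788, 1.45 and 1.83 CPM in WT and 1.75, 2.53 and 3.69 CPM in R6/2 vehicle libraries. The groups overlapped at the edge, 10 of 10 R6/2 libraries lay above the WT mean, and the log2 change was 0.89 ± 0.14 (SE; adjusted p = 1.82e-06). Pcdhb9, one of the more abundant beta genes, went from 9.02, 11.4 and 12.9 CPM to 16.4, 20.1 and 24.8 CPM, with no overlap between the genotypes and a log2 change of 0.84 ± 0.06 (adjusted p = 1.84e-14). Pcdhb4 rose by 0.82 ± 0.14 (adjusted p = 4.65e-06), from 1.079, 1.75 and 2.71 CPM to 2.48, 3.09 and 4.53 CPM, and its groups overlapped at the edge. For Pcdhb12 the values were 5.45, 6.61 and 7.43 CPM in WT and 9.67, 11.02 and 14.5 CPM in R6/2, again apart, with a log2 change of 0.80 ± 0.07 (adjusted p = 1.03e-12).

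The 10 R6/2 libraries all lay above the 10 WT libraries for 6 of 22 beta genes in the vehicle striatum (all genes 7.72%), for 3 of 21 in the cortex (6.19%) and for 2 of 21 in the cerebellum (7.55%), the cerebellar share lying near that of all genes. In the striatum the beta genes that did not pass were Pcdhb1 (-0.21 ± 0.29), Pcdhb6 (0.36 ± 0.17), Pcdhb8 (-0.25 ± 0.11), Pcdhb11 (0.13 ± 0.09), Pcdhb13 (0.23 ± 0.10) and Pcdhb18 (0.16 ± 0.09, log2 change ± SE). Pcdhb8 lay lower in R6/2 without passing, at 1.90, 2.81 and 3.66 CPM in WT and 1.74, 2.41 and 2.88 CPM in R6/2 (adjusted p = 0.0515), and its groups overlapped.

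**Figure D4:**
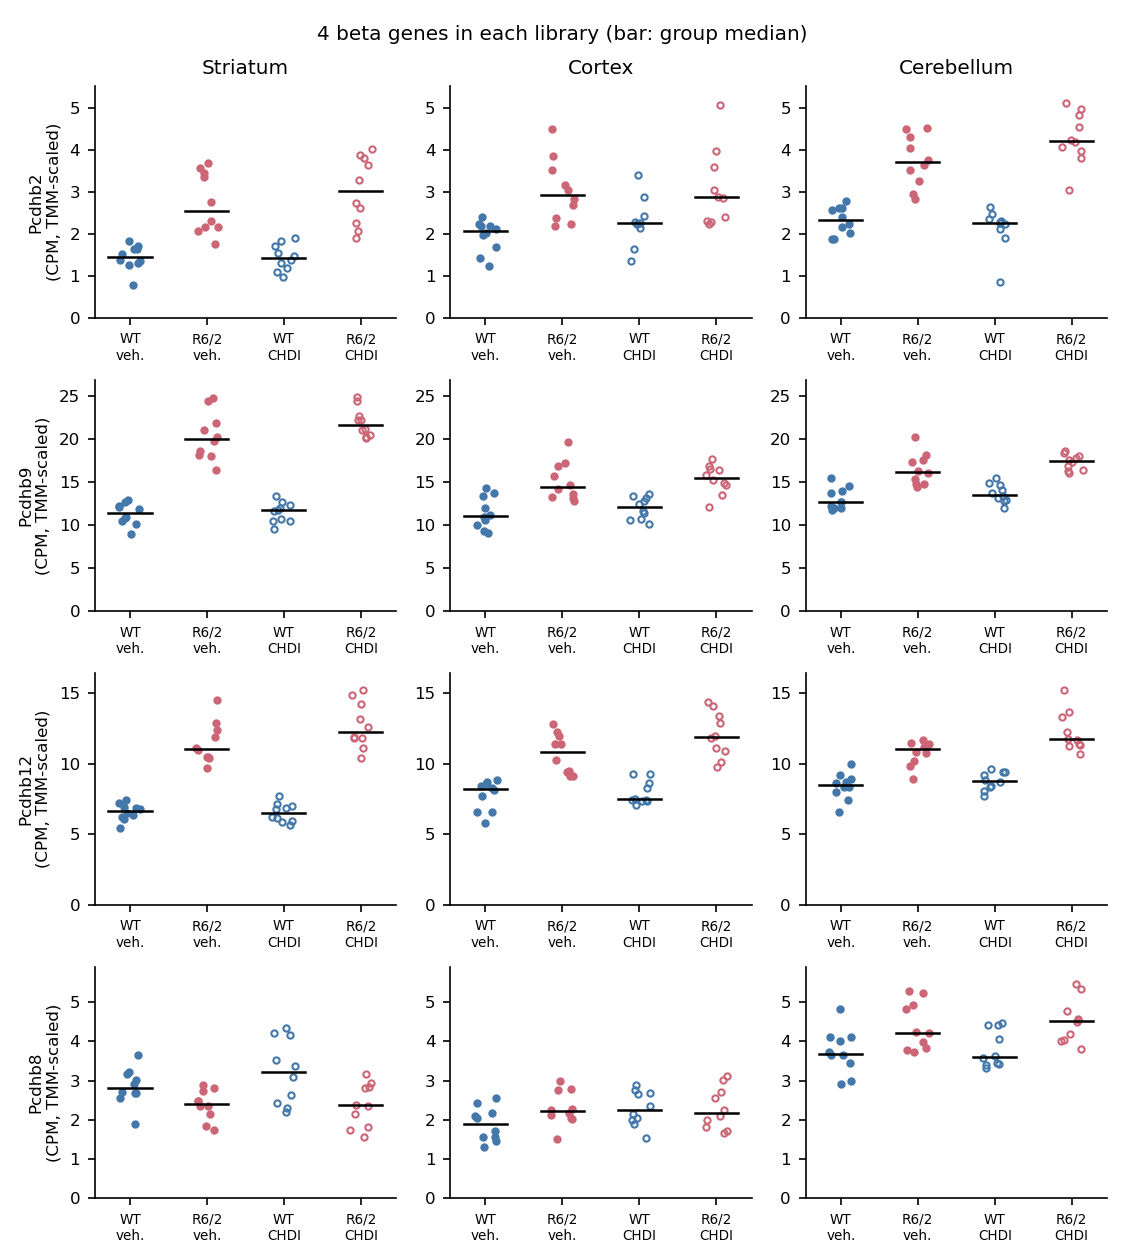
Level of Pcdhb2, Pcdhb9, Pcdhb12 and Pcdhb8 in each of the 120 brain libraries (TMM-scaled CPM; filled points vehicle, open points CHDI-00340246; bars, group medians). Pcdhb9 and Pcdhb12 separate the genotypes most widely in the striatum, and the striatal median of Pcdhb8 is lower in R6/2.

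In the cortex the leading rises were those of Pcdhb4 and Pcdhb2. Pcdhb4 stood at 1.39, 1.89 and 2.52 CPM in WT and 2.08, 3.14 and 4.29 CPM in R6/2 vehicle libraries, with partly overlapping groups and a log2 change of 0.69 ± 0.13 (adjusted p = 3.20e-05). Pcdhb2 rose by 0.64 ± 0.14 (adjusted p = 0.000122), from a median of 2.06 to 2.93 CPM. Pcdhb21, at 2.75, 4.14 and 4.76 CPM in WT and 4.99, 5.90 and 6.84 CPM in R6/2, showed no overlap and a log2 change of 0.56 ± 0.08 (adjusted p = 6.54e-07). The scarce Pcdhb6 rose by 0.52 ± 0.15 (adjusted p = 0.00247). Pcdhb3, Pcdhb8, Pcdhb11 and Pcdhb20 did not pass, at log2 changes of 0.21 ± 0.11, 0.27 ± 0.12, 0.02 ± 0.10 and 0.11 ± 0.05.

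In the cerebellum Pcdhb2 led again. Its libraries ran over 1.88, 2.32 and 2.78 CPM in WT and 2.84, 3.70 and 4.51 CPM in R6/2, with no overlap and a log2 change of 0.69 ± 0.12 (adjusted p = 9.17e-06). Pcdhb6 rose by 0.55 ± 0.14, Pcdhb3 by 0.53 ± 0.08 and Pcdhb5 by 0.52 ± 0.09 on the log2 scale, the last from 3.11, 3.799 and 4.49 CPM to 4.02, 5.25 and 6.65 CPM with overlapping groups. Pcdhb17, the most abundant beta gene per length there, went from 15.7, 17.6 and 20.8 CPM to 21.4, 22.5 and 26.3 CPM without overlap, a log2 change of 0.38 ± 0.05. It was named after its values were seen. Pcdhb4, Pcdhb18 and Pcdhb19 did not pass, at 0.28 ± 0.12, 0.08 ± 0.06 and -0.09 ± 0.08.

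Over the 3 regions, 12 of the 22 beta genes rose in all, 6 in 2, 3 in 1 and 1 (Pcdhb1) in none by edgeR. Of the 16469 genes tested in all 3 regions, among them 21 beta genes, 12.5% rose in all. The genes that rose everywhere were Pcdhb2, Pcdhb5, Pcdhb7, Pcdhb9, Pcdhb10, Pcdhb12, Pcdhb14, Pcdhb15, Pcdhb16, Pcdhb17, Pcdhb21 and Pcdhb22. The median log2 change of Pcdhb1 to Pcdhb12 was 0.48, 0.44 and 0.40 in the striatum, cortex and cerebellum, and that of Pcdhb13 to Pcdhb22 was 0.24, 0.31 and 0.27. Across the beta genes tested, Spearman's rho of the change with chromosomal order was -0.17 (22 genes), -0.31 (21) and -0.64 (21), and of the change with mean level -0.13, -0.41 and -0.58. These points share libraries and the split was chosen after the values were seen.

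How reads that match several genes were counted is not stated. Of the beta genes with at least 80% whole-number counts, 5 of 7 rose in the striatum, 6 of 6 in the cortex and 5 of 6 in the cerebellum, at median log2 changes of 0.56, 0.49 and 0.36. For the other beta genes the counts were 11, 11 and 13 of 15, at medians of 0.36, 0.27 and 0.35. The sources used here do not say whether counting took account of strand.

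The alpha record changed in opposite directions in the striatum and the cerebellum. It stood at 92.99, 106.1 and 115.97 CPM in WT and 112.6, 118.8 and 134.2 CPM in R6/2 vehicle striatum, where the groups overlapped at the edge, 10 of 10 R6/2 libraries exceeded the WT mean and the log2 change was 0.19 ± 0.04 (adjusted p = 0.000245). In the cerebellum it ran over 158.5, 164 and 174 CPM in WT and 109.6, 119.9 and 137.2 CPM in R6/2, with no overlap and a log2 change of -0.45 ± 0.03 (adjusted p = 7.67e-14). In the cortex the values were 159.999, 189.6 and 199 CPM in WT and 162, 173 and 205 CPM in R6/2, and the change of -0.06 ± 0.05 did not pass (adjusted p = 0.287).

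The gamma record, the most abundant member, fell clearly in the cerebellum. It went from 635, 655 and 757 CPM in WT to 472, 539 and 605 CPM in R6/2 vehicle libraries, with no overlap and a log2 change of -0.32 ± 0.04 (adjusted p = 6.19e-09). In the striatum the values were 591, 647 and 684 CPM in WT and 543, 561 and 602 CPM in R6/2, with slightly overlapping groups and a log2 change of -0.18 ± 0.03 (adjusted p = 6.99e-06). With library totals in place of TMM and all else kept, an alternative added after seeing the data, the striatal change was -0.03 and did not pass (adjusted p = 0.479). That scaling moved the median change of all genes from 0.02 to 0.17 in the striatum, from 0.01 to 0.10 in the cortex and from 0.01 to 0.08 in the cerebellum. The share of rises among the genes called went from 52.8 to 73.1%, from 51.2 to 67.3% and from 50.3 to 63.6% in the same order. The median change of the beta genes under it was 0.57, 0.48 and 0.43, above the median of all genes in each region. In the cortex the gamma record changed by -0.05 ± 0.04, which did not pass, and both records there turned positive with library totals (0.03 for alpha and 0.04 for gamma), again without passing.

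Markers of several neuronal and glial cell types moved with genotype beside these changes. Of all genes tested, 29.7, 28.1 and 26.3% rose and 26.5, 26.9 and 26% fell in the striatum, cortex and cerebellum. Falls of 3 of 10 microglial markers in the striatum and 3 of 12 medium spiny neuron markers in the cortex lay near these shares. In the striatum 11 of 12 markers of medium spiny neurons, the main striatal cell type, fell (8919 to 10253 CPM in WT and 2792 to 3609 CPM in R6/2), where the values are the range of their summed level over 10 vehicle libraries. There 8 of 10 interneuron markers fell (1723 to 1985 CPM in WT and 1319 to 1519 CPM in R6/2), 6 of 10 astrocyte markers fell and 1 rose (3668 to 4730 CPM in WT and 2450 to 2833 CPM in R6/2) and 5 of 10 oligodendrocyte markers fell (10340 to 12658 CPM in WT and 7222 to 11442 CPM in R6/2). Of the 10 endothelial and mural and the 10 microglial markers, 6 and 3 fell in the striatum. With library totals in place of TMM, 0 of either fell there. Under that scaling 11 of 12 medium spiny neuron markers in the striatum and 10 of 10 Purkinje cell markers in the cerebellum still fell. Falls went from 8 to 6 for striatal interneuron, from 4 to 2 for cortical oligodendrocyte and from 7 to 5 for cerebellar granule cell markers. In the striatum, rises and falls went from 0 and 5 to 2 and 4 for oligodendrocyte markers. For general neuronal markers there they went from 2 and 7 to 3 and 5. All other counts of markers are with TMM. In the cortex 6 of 10 projection neuron markers fell (4240 to 5315 CPM in WT and 2547 to 3209 CPM in R6/2) and 8 of 10 interneuron markers fell (1097 to 1321 CPM in WT and 584 to 853 CPM in R6/2). In the same region 7 of 10 astrocyte markers fell and 1 rose (4745 to 5482 CPM in WT and 2933 to 3443 CPM in R6/2), 4 of 10 oligodendrocyte markers fell (3585 to 6220 CPM in WT and 3691 to 4762 CPM in R6/2) and 3 of 12 medium spiny neuron markers fell (427 to 1235 CPM in WT and 353 to 580.1 CPM in R6/2). The WT and R6/2 ranges did not overlap for the projection neuron, interneuron and astrocyte sums of the cortex.

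In the cerebellum 10 of 10 Purkinje cell markers fell (9238 to 10922 CPM in WT and 2870 to 3465 CPM in R6/2) and 7 of 10 granule cell markers fell and 1 rose (6650 to 7544 CPM in WT and 4801 to 5487 CPM in R6/2). There 7 of 9 interneuron markers fell and 1 rose (1705 to 2061 CPM in WT and 1197 to 1370 CPM in R6/2), 5 of 10 astrocyte markers fell (3414 to 4292 CPM in WT and 3126 to 3530 CPM in R6/2) and 6 of 10 oligodendrocyte markers fell (3998 to 6927 CPM in WT and 3339 to 4295 CPM in R6/2). In that region 10 of 10 microglial markers rose (109.2 to 143.6 CPM in WT and 149.9 to 197 CPM in R6/2), as did 4 of 6 markers of oligodendrocyte precursors (106.6 to 142.5 CPM in WT and 144.6 to 184 CPM in R6/2). Choroid plexus markers varied widely between cerebellar libraries of both genotypes (22.2 to 2531 CPM in WT and 31.8 to 2948 CPM in R6/2). Of the 10 general neuronal markers, 7, 8 and 7 fell in the striatum, cortex and cerebellum and 2, 1 and 3 rose. The part of these markers in the protocadherin changes was not tested, and in such bulk tissue fewer cells of a type and less RNA per cell cannot be told apart.

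The genotype effect differed between regions for some members. By tests of the difference itself over all 120 libraries, 4 members had a higher and 2 a lower effect in the striatum than in the cortex (all genes differing either way 22.9%), 1 a higher and 3 a lower effect in the cerebellum than in the cortex (30.9%), and 2 a higher and 7 a lower effect in the cerebellum than in the striatum (36.2%). Of the 24 members, 6, 4 and 9 thus differed, a share near or below that of all genes, and Pcdhb1 was not among them. This fit takes libraries of different regions as separate samples. With the specimen position as a block, 4 members were higher and 2 lower, 3 and 4, and 4 and 8, in the same order. For cerebellum minus striatum the share of members then lay above that of all genes, of which 3629 of 18581 were higher and 3900 lower. With library totals the share of higher effects among all genes called moved from 43.7 to 70.9% for striatum minus cortex and from 48.1 to 31.1% for cerebellum minus striatum. The alpha record differed in all 3 comparisons, by 0.22 ± 0.06 (adjusted p = 0.00254), -0.41 ± 0.06 (adjusted p = 1.58e-08) and -0.63 ± 0.06 (adjusted p = 2.95e-16) in the same order. The gamma record had a lower effect in the cerebellum than in the cortex, by -0.30 ± 0.05 (adjusted p = 4.10e-07). Its lower effect in the striatum than in the cortex, -0.16 ± 0.05 (adjusted p = 0.00981), was lost without replicate 3, 4 or 5 (adjusted p = 0.149, 0.147 and 0.130). It was also lost with library totals, at -0.07 (adjusted p = 0.271), and on the 3 FPKM settings, at -0.07 (adjusted p = 0.289 to 0.371).

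Among the beta genes, the effect on Pcdhb9 was larger in the striatum than in the cortex by 0.43 ± 0.09 (adjusted p = 0.000206) and smaller in the cerebellum than in the striatum by -0.51 ± 0.09 (adjusted p = 3.62e-06). Pcdhb12 had a smaller effect in the cerebellum than in the striatum as well, by -0.44 ± 0.10 (adjusted p = 0.000269). Pcdhb8 went the other way, with an effect -0.55 ± 0.15 in the striatum relative to the cortex (adjusted p = 0.00431), lost without replicate 3 or 4 (adjusted p = 0.0624 and 0.0525) or on log2(FPKM + 1) with no filter (adjusted p = 0.0685), and 0.49 ± 0.15 in the cerebellum relative to the striatum (adjusted p = 0.00599), lost without replicate 2 (adjusted p = 0.0701). The differences of Pcdhb11 (0.35 ± 0.13, adjusted p = 0.0273) and Pcdhb19 (-0.32 ± 0.12, adjusted p = 0.0309) between cerebellum and cortex did not hold when replicates were left out. For Pcdhb11 the call was lost without replicate 1, 2 or 4 (adjusted p = 0.163, 0.0979 and 0.111), and for Pcdhb19 without replicate 2, 3 or 4 (adjusted p = 0.145, 0.344 and 0.130) or without the 3 libraries that stood apart (adjusted p = 0.0513), and also with RLE size factors, no filter or DESeq2 (adjusted p = 0.0563, 0.0747 and 0.0563).

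The mice given CHDI-00340246 form a separate set of 20 libraries per region, and the beta genes were higher in R6/2 there too. Of the beta genes tested, 15 rose and 1 fell in the striatum (all genes 29.7% and 28.4%), 13 and 0 in the cortex (29.2% and 27.9%), and 19 and 0 in the cerebellum (27.9% and 26.7%). In the striatum 15 beta genes rose in both sets, which is 93.8% of those rising under vehicle (all genes 86.3%) and all of those rising under the drug (all genes 86.2%). In the cortex 12 did, 70.6% of those under vehicle (all genes 85%) and 92.3% of those under the drug (all genes 81.9%), and in the cerebellum 18 did, all of those under vehicle (all genes 84.1%) and 94.7% of those under the drug (all genes 79.3%). Such recurrence was thus common over all genes. Across beta genes the 2 sets of log2 changes had Pearson correlations of 0.84 (22 genes), 0.82 (21) and 0.84 (21), in points that share their libraries within each set, genes not being independent replicates. 10 of the 22 beta genes rose in all 3 regions in both sets, as did 10.5% of the 16469 genes tested in all 3.

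Pcdhb9 in the dosed striatum stood at 9.59, 11.8 and 13.4 CPM in WT and 20.1, 21.7 and 24.96 CPM in R6/2, with no overlap and a log2 change of 0.93 ± 0.06. Pcdhb2 in the dosed cerebellum had 0.844, 2.26 and 2.64 CPM in WT and 3.05, 4.20 and 5.11 CPM in R6/2, again apart, with a log2 change of 1.01 ± 0.12. The lowest of these WT values came from the male library that stood apart. Without that library the cerebellar count of rising beta genes was 18, and without the striatal library that stood apart the striatal count was 17. Pcdhb8 was the beta gene that fell, at 2.20, 3.23 and 4.34 CPM in WT and 1.57, 2.37 and 3.17 CPM in R6/2 striatum (log2 change -0.45 ± 0.11, adjusted p = 0.000594), with overlapping groups, and on the FPKM scale no beta gene passed as lower (0 by limma, 1 at an unadjusted p under 0.05). The alpha record repeated its pattern, at 0.22 ± 0.04, -0.05 ± 0.05 and -0.46 ± 0.03 in the striatum, cortex and cerebellum, of which the cortical value did not pass. The gamma record was lower by log2 changes of -0.19 ± 0.03, -0.14 ± 0.04 and -0.35 ± 0.04, all past the threshold, but the striatal and cortical calls were lost on the FPKM scale. The cortical effect did not differ from that under vehicle by the test of the interaction (adjusted p = 0.926).

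**Figure D5:**
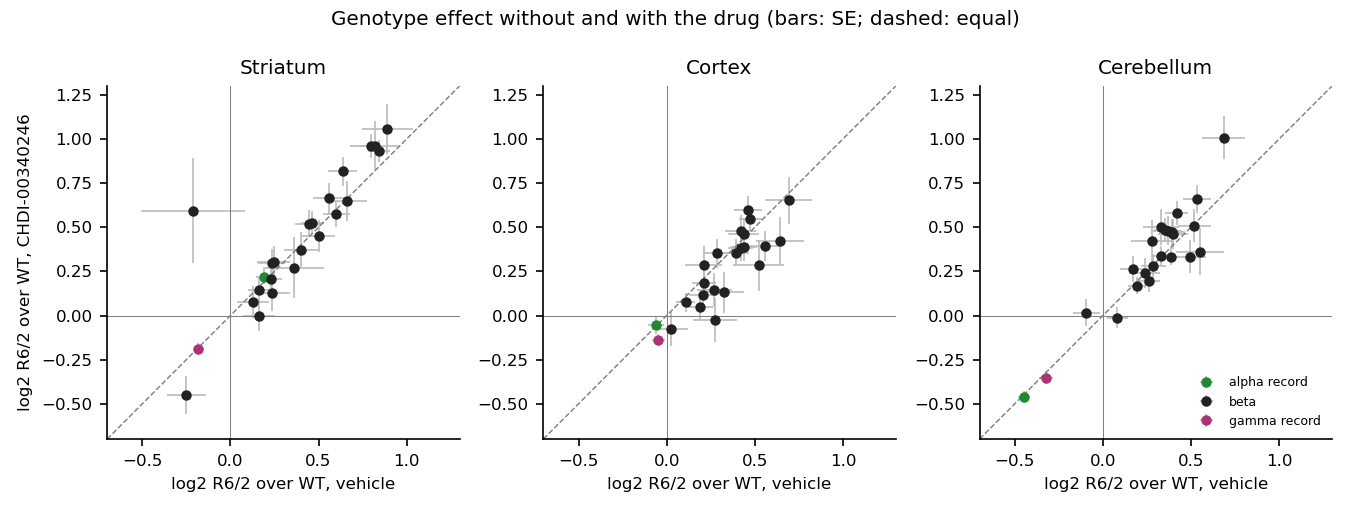
Log2 difference of R6/2 over WT under vehicle (x axis) and under CHDI-00340246 (y axis) for each member tested, with SE on both axes; the dashed line marks equal effects. Most points lie near the line in all 3 regions. Farthest from it is the scarce Pcdhb1 in the striatum at -0.21 and 0.59. Pcdhb2 in the cerebellum and Pcdhb8 in the cortex also lie off it, the dosed effect differing by 0.32 and -0.30.

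A single dose of CHDI-00340246 moved no clustered protocadherin past the threshold. In edgeR, 0 members passed for the drug effect in WT or in R6/2 in any region (all genes 0.0% except 0.125% in R6/2 cortex and 0.0407% in R6/2 cerebellum), and 0 for the interaction of drug and genotype (all genes 0.0%). DESeq2 called 0 as well. In edgeR 8 of the 140 tests of a member's drug effect had an unadjusted p under 0.05, 4 of them in WT cortex. Of all genes, 3.62% (WT striatum) to 10.3% (WT cortex) had such a p, a range that holds the share of the members. The interval of each difference shows what these groups could resolve. Of the abundant alpha record it was -0.04 to 0.12 in WT and -0.01 to 0.15 in R6/2 striatum on the log2 scale (95%). Of Pcdhb17, the beta gene highest per length, it was -0.14 to 0.12 and -0.16 to 0.10. Scarcer beta genes such as Pcdhb8 had larger SEs, so less could be resolved for them. The largest drug difference of a beta gene other than Pcdhb1 was 0.28 in size.

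Pcdhb12 had the smallest p of the members in R6/2 mice in each region. Its log2 difference of dosed over vehicle was 0.15 ± 0.07 in the striatum (unadjusted p = 0.0269, adjusted 0.744), 0.17 ± 0.08 in the cortex (0.0372, 0.628) and 0.19 ± 0.07 in the cerebellum (0.00646, 0.905), none past the threshold, in regions that may share mice. Next in R6/2 were Pcdhb9 in the striatum at 0.12 ± 0.06, the alpha record in the cortex at 0.09 ± 0.05 and Pcdhb3 in the cerebellum at 0.15 ± 0.08. In WT the smallest p belonged to Pcdhb1 (-0.47 ± 0.30) and Pcdhb8 (0.17 ± 0.11) in the striatum, the gamma record (0.11 ± 0.04) and Pcdhb8 (0.28 ± 0.12) in the cortex, and Pcdhb21 (-0.26 ± 0.10, and -0.17 without the library that stood apart) and Pcdhb15 (-0.15 ± 0.08) in the cerebellum. None of these passed. The interaction was nearest to the threshold for Pcdhb1 (0.81 ± 0.42) and Pcdhb12 (0.16 ± 0.10) in the striatum, the gamma record (-0.09 ± 0.05) and Pcdhb8 (-0.30 ± 0.17) in the cortex, and Pcdhb2 (0.32 ± 0.17) and Pcdhb7 (0.16 ± 0.10) in the cerebellum, with the lowest adjusted p, 0.830, for Pcdhb2.

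No member had a genotype effect that differed between the sexes at the threshold. In edgeR and in DESeq2 0 members passed in each of the 3 regions (all genes 0.0% in edgeR). An unadjusted p under 0.05 was found in edgeR for 6.24, 9.64 and 3.14% of all genes in the striatum, cortex and cerebellum. Of the members tested 1 had such a p, the alpha record in the cortex. The difference of its effect, females minus males, was 0.19 ± 0.10 (adjusted p = 0.518). Pcdhb2 stood among the smallest p-values in the striatum (0.51 ± 0.29) and the cortex (0.55 ± 0.27), with Pcdhb14 in the striatum at 0.29 ± 0.15. In the cerebellum they belonged to Pcdhb20 (0.15 ± 0.10) and Pcdhb3 (0.23 ± 0.16).

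Genes of the machinery that acts on the clusters also changed in R6/2 mice given vehicle. Of 24 such genes (CTCF, cohesin and its loaders, DNA methylation enzymes and histone methyltransferases), 16 rose and 3 fell in the striatum, 19 and 1 in the cortex, and 13 and 1 in the cerebellum, at median log2 changes of 0.16, 0.23 and 0.13. Of all genes tested, 29.7, 28.1 and 26.3% rose and 26.5, 26.9 and 26% fell in the 3 regions, so that the count of rises lay above the share of all genes and that of falls below it. Tet2, which oxidises methylated cytosine, rose by 0.69 ± 0.05, 0.81 ± 0.05 and 0.97 ± 0.06 in the 3 regions (adjusted p = 1.41e-13, 3.10e-16 and 1.09e-16). The cohesin subunit gene Stag2 rose by 0.39 ± 0.05, 0.37 ± 0.03 and 0.17 ± 0.04, and the cohesin loader gene Nipbl by 0.36 ± 0.07, 0.48 ± 0.04 and 0.26 ± 0.08. Wiz, a zinc finger partner of histone H3 lysine methyltransferases, rose by 0.46 ± 0.05 and 0.50 ± 0.04 in the striatum and cortex and fell by 0.32 ± 0.07 in the cerebellum. Rest, a repressor of neuronal genes, rose by 0.65 ± 0.07, 0.40 ± 0.06 and 0.27 ± 0.08. Smchd1, a chromatin protein that in mice keeps clustered protocadherins silent, rose by 0.30 ± 0.05, 0.30 ± 0.03 and 0.25 ± 0.04. Ctcf itself did not pass in any region, at 0.07 ± 0.04, 0.08 ± 0.03 and 0.03 ± 0.03, but passed as higher in all 3 with library totals in place of TMM, at 0.22, 0.17 and 0.10 (adjusted p = 8.81e-06, 2.05e-05 and 0.00276).

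Of 20 partner and processing genes, 6 rose and 10 fell in the striatum, 6 and 7 in the cortex, and 8 and 3 in the cerebellum (medians -0.05, -0.06 and 0.07). Against the shares of all genes given for the machinery, the falls in the striatum and the rises in the cerebellum were more frequent, the falls in the cerebellum less, and the others near them. With library totals the medians were 0.10, 0.03 and 0.14, so the sign in the striatum and cortex turned. The WAVE complex, which remodels actin downstream of alpha protocadherins, had falling members in the striatum: Cyfip2 fell by 0.68 ± 0.04 and Nckap1 by 0.40 ± 0.04. Ptk2b, a kinase that the alpha and gamma cytoplasmic domains restrain, fell by 0.75 ± 0.05 there. Marcks, an actin-binding substrate of protein kinase C in the gamma pathway, rose by 0.48 ± 0.05, 0.49 ± 0.05 and 1.303 ± 0.08 in the 3 regions. In the cortex Brk1 of the WAVE complex fell by 0.45 ± 0.04, Cyfip2 fell by 0.37 ± 0.04 and the kinase gene Fyn rose by 0.18 ± 0.03. Nlgn1, a synaptic adhesion gene whose protein binds gamma protocadherins, rose by 0.75 ± 0.04 in the cerebellum, where Fyn rose by 0.29 ± 0.03.

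Of the protocadherins outside the clusters some rose and some fell. Of 12 tested, 5 rose and 1 fell in the striatum, 5 and 2 in the cortex, and 6 and 3 in the cerebellum (medians 0.12, 0.14 and 0.20), against all-gene shares of 29.7, 28.1 and 26.3% rising and 26.5, 26.9 and 26% falling. Pcdh20 rose by 1.504 ± 0.09 in the striatum and fell by 0.57 ± 0.12 in the cerebellum. Pcdh19, an adhesion gene mutated in a human epilepsy, rose by 1.12 ± 0.10 and 0.39 ± 0.06 in the striatum and cortex, Pcdh10 by 0.40 ± 0.05 in the striatum and 0.72 ± 0.05 in the cerebellum, and Pcdh11x by 0.46 ± 0.09, 0.49 ± 0.08 and 1.67 ± 0.10 in the 3 regions. In the cortex Pcdh17 rose by 0.53 ± 0.07 and Pcdh1 fell by 0.23 ± 0.06.

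Of the genes that flank or lie among the clusters on chromosome 18, 6 of 15 rose and 4 fell in the striatum, 5 and 3 of 15 in the cortex, and 2 and 4 of 16 in the cerebellum (medians 0.03, -0.00372 and -0.08), against 29.7, 28.1 and 26.3% rising and 26.5, 26.9 and 26% falling over all genes. Hars and Hars2, the histidyl-tRNA synthetase genes, rose by 0.33 ± 0.03 and 0.24 ± 0.03 in the striatum. The splicing gene Ik rose by 0.30 ± 0.04 in the striatum and 0.27 ± 0.04 in the cerebellum. Tmco6 fell by 0.41 ± 0.06, 0.61 ± 0.06 and 0.57 ± 0.07 in the 3 regions, and Zmat2 fell by 0.26 ± 0.03 in the cortex and 0.33 ± 0.04 in the cerebellum.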

How the data were processed

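RNA was sequenced from the striatum, cortex and cerebellum of R6/2 and WT mice, 10 libraries per group. The authors deposited a table of estimated counts per Ensembl gene and a table of FPKM. Per the submitters' processing notes, CASAVA 1.8.2 was used. How reads were aligned and counted, on which build, and how strand and shared reads were handled is not given in the sources used here. Of the deposited estimated counts above 0, 73.4% were whole numbers within 0.001. Symbols came from GENCODE M21. In the deposited FPKM table, 13 of 160 columns matched the count column of the same header best and all 160 matched a column of the same group, so FPKM was used by group, without a sex term.

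Estimated counts were rounded and tested with edgeR 4.0.16 in R 4.3.3 (TMM scaling, filterByExpr with a count minimum of 10, robust quasi-likelihood test). Each region was fitted on its 40 libraries with 1 mean for each of the 8 combinations of genotype, treatment and sex, and comparisons between regions on 120 libraries with 24 such means. P-values were adjusted by Benjamini-Hochberg over all genes of a fit. The threshold was an adjusted p of 0.05. Log2 differences are given with their SE. Intervals are 1.96 SE either way, a nominal 95%. Levels are TMM-scaled CPM on the scale of the fit they accompany, and sets of 3 levels are the lowest, median and highest library. The fit was tested on simulated data. Alternatives were RLE size factors, no filter, DESeq2 1.42.0, counts not rounded and leaving out replicates. Others added the run of library numbers or a block, or used an additive sex term. Limma 3.58.1 was run on log2(FPKM + 1) with and without a minimum mean FPKM of 0.1, and on log2(FPKM + 0.1) with that minimum. Leaving out the library farthest from its group in each region, and edgeR with library totals over the genes tested in place of TMM, were chosen after seeing the data.

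The members and the gene lists were chosen with earlier results of these data known. The genes named are up to 4 members each way per genotype or region comparison at 0.5 CPM or more. To these come the 2 with the smallest p per drug or sex contrast. Also named are the 4 with the smallest p per comparison of genotype effects between regions. The rule further names the gamma record, for its C-type symbol, and up to 4 passing genes per list and region. Others were named after their values were seen. A gene that this rule names in a list is not reported here. Nothing in the labels says whether libraries of different regions share mice, and within a region p-values measure the spread between the labelled samples. The 40 liver libraries were used only for levels. Transcript sequences of GENCODE M21 gave, for each member, the percent of its 50-base stretches that no other member held. Over the beta genes tested, Spearman's rho of the genotype change under vehicle with this percent was -0.23, -0.14 and -0.035 in the striatum, cortex and cerebellum.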

Additional observations from a re-analysis of the deposited data

Results flagged for a closer look

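Of 11 quantities (10 named members and the beta sum) in each of the 12 groups of 10 libraries, a library lay apart from its neighbour by more than Dixon's 95% critical value 8 times. Chance gives this in about 1 in 20 groups. The alpha record was high in 1 R6/2 vehicle striatum library, at 134.23 CPM with the next at 122.86 CPM. Pcdhb6 had 1 high library in 3 dosed groups, at 7.3653 CPM in WT striatum (next 3.8803 CPM), 6.088 CPM in R6/2 striatum (next 4.0354 CPM) and 2.2073 CPM in WT cortex (next 1.4238 CPM). That WT striatal library is the one that stands apart from its group over all genes. Pcdhb21 was low in 1 dosed R6/2 cortex library, at 4.4007 CPM with the next at 5.3006 CPM. In the dosed WT cerebellum the male library that stands apart over all genes was the lowest for Pcdhb2 (0.84354 CPM, next 1.8944 CPM), Pcdhb21 (2.5306 CPM, next 4.544 CPM) and the beta sum (149.02 CPM, next 165.61 CPM).

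The genotype effect under vehicle differed between regions, by a test of the difference itself, for these named members. Striatum minus cortex, the log2 difference of effects was 0.4272 for Pcdhb9, 0.2245 for the alpha record, -0.5482 for Pcdhb8 and -0.1598 for the gamma record. Cerebellum minus cortex, it was -0.4067 for the alpha record, -0.296 for the gamma record, 0.3549 for Pcdhb11 and -0.3193 for Pcdhb19. Cerebellum minus striatum, it was -0.6312 for the alpha record, -0.5107 for Pcdhb9, -0.4385 for Pcdhb12 and 0.491 for Pcdhb8.

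In the 40 liver libraries, which no comparison used, the median level was 13.4 CPM for the gamma record, 0.1079 CPM for the alpha record and 2.795 CPM for the 22 beta genes together.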

How the results depend on the processing

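Rising beta genes outnumbered falling ones under every alternative run in both treatments, but the counts of falling members and of regional differences moved. Under vehicle, leaving out 1 replicate number at a time gave 14 to 18 rising members in the striatum, 13 to 18 in the cortex and 16 to 18 in the cerebellum, and 1 to 2 falling ones in the striatum. RLE size factors gave 2 falling members in the striatum in place of 1. On the FPKM scale (log2(FPKM + 1), log2(FPKM + 0.1) and no filter) 0 members fell in the vehicle striatum, 0 in the dosed striatum in place of 2 and 0 in the dosed cortex in place of 1, by limma. In the vehicle cortex the alpha change of -0.06 became 0.05325, 0.05458 and 0.05325 and the gamma change of -0.05 became 0.04386, 0.04421 and 0.04386 in the same order, none passing. With library totals in place of TMM in edgeR they became 0.03028 and 0.04425, also not passing, and 0 members fell in the vehicle striatum, 1 in the dosed striatum and 0 in the dosed cortex. Ratios of R6/2 to WT medians moved from CPM to summed FPKM: alpha 1.119 to 1.269 and beta 1.299 to 1.461 and gamma 0.8665 to 0.9747 in the striatum, alpha 0.9126 to 1.005 and beta 1.206 to 1.301 in the cortex, and alpha 0.7307 to 0.7747 and beta 1.245 to 1.325 in the cerebellum. FPKM differs from the main values in scaling, tool, filter and model, and the cause of these moves was not tested.

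Striatum over cortex, the 5 lower members became 3 to 5 when replicates were left out. Cerebellum over striatum, the 8 lower members became 3, 4 and 4 on the 3 FPKM settings and 5 with library totals. For the genotype effect, the 2 members lower in striatum than cortex became 0 to 2 without replicates and 1, 1 and 0 on FPKM and 1 with library totals. The 1 higher in cerebellum than cortex became 0 to 4 without replicates, 2 under RLE, 2 under DESeq2 and 3 with the specimen position as a block. The 2 higher in cerebellum than striatum became 0 to 2 without replicates, 1 with the run of library numbers, 1 on each FPKM setting, 1 with library totals and 4 with the specimen position. The cause was not tested. Drug contrasts gave 0 passing members under each of the alternatives run within a region. The sex contrast also gave 0 where it was run, which excludes the FPKM settings and the additive sex term.

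Replicate numbers did not pair the libraries (mean correlation of deviations -0.0145, 0.0462 and -0.0141 within the striatum, cortex and cerebellum). With the replicate block, 18, 17 and 17 members rose and 1, 0 and 2 fell under vehicle, and 16, 13 and 19 rose and 2, 1 and 2 fell under the drug. Specimen position paired libraries of different regions better (40, 37 and 40 of 40 correlated best with their own position), as a hint from the data, not the design. Depth limits the beta genes: Pcdhb1 had 13 counts over the 10 R6/2 vehicle libraries of the cerebellum.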

Other observations

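The length implied for the alpha record by the ratio of CPM to FPKM was lower in R6/2 than in WT in all 6 pairs of region and treatment. Under vehicle it was 5119.1 bases in WT and 5072.6 in R6/2 striatum, 5191.8 and 5105.3 in the cortex, and 5140.2 and 5061.1 in the cerebellum. With the drug it was 5107.8 and 5053.0 in the striatum, 5154.5 and 5101.5 in the cortex, and 5157.8 and 5063.4 in the cerebellum. For the gamma record all 12 groups lay between 4724.8 and 4737.9 bases. These are ratios of group means, with no test.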
